A study of Homo sapiens with 6 samples.

Results

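The 10 genes described here are transcription factors and effectors of the ATF4 arm of the integrated stress response. They were chosen by gene symbol: ATF4, ATF3, DDIT3, DDIT4, TRIB3, CHAC1, NUPR1, SESN2, ADM2 and CEBPB, which are 10 of the 23754 features in the table of counts. The set was picked with earlier results of these data known. All 10 had enough counts to be tested, among 13991 features that did. RNA was sequenced from IMR-90, an established line of human fetal lung fibroblasts, carrying a doxycycline-inducible hairpin (sh-2, in Tet-pLKO-puro) against ZNF469, a zinc finger gene studied for its part in collagen expression. DOX+ cells (labelled Sh-ZNF469, 3 libraries) had received 2 µg/mL doxycycline for 4 days, and DOX- cells (labelled Control, 3 libraries) had received none. Both groups came from cells selected with 0.5 µg/mL puromycin. The labels call the control genotype wild-type, whereas the methods describe the same transduced line without induction. No library with doxycycline but without the hairpin was among the 6, so the effects of the drug and of the hairpin cannot be told apart. The submitted design calls the replicates technical, so p-values measure only the spread between these libraries.

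Libraries held 34057675 to 36120260 counts, of which the 10 genes took 0.0670% to 0.0693% in DOX- cells and 0.0570% to 0.0580% in DOX+ cells. Levels are given as TMM-scaled CPM (library-size-normalized counts) and, between genes, as the deposited FPKM, which divides by transcript length. ZNF469 itself was at 118, 112 and 126 CPM in DOX- replicates 1, 2 and 3 and at 80.4, 80.4 and 79.6 CPM in DOX+ replicates 1, 2 and 3, leaving 67.5% of the control level. The first principal component set DOX+ replicate 2 apart from the other libraries. Fibroblast markers were all detected, and their summed level was 36089 to 37182 CPM in DOX- libraries against 26934 to 27815 CPM in DOX+ libraries, a difference that lay mostly in COL1A1 and COL1A2. Epithelial markers summed to at most 0.472 CPM, with 5 of 7 at 0, endothelial markers to 20.1 to 24.1 CPM, with 2 of 5 at 0, and immune markers to 59.0 to 66.7 CPM, with 3 of 5 at 0. The endothelial and immune sums came mostly from TEK and CD68.

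When the initiation factor eIF2alpha is phosphorylated by one of its kinases, translation of most mRNAs falls while that of ATF4 mRNA rises, because upstream reading frames then divert fewer ribosomes. ATF4 is a basic leucine zipper (bZIP) factor that pairs with C/EBP proteins on composite C/EBP-ATF sites and switches on genes for amino acid supply, for further bZIP factors and for proteins that restrain growth or feed back on the response. In fibroblasts the pathway is known for supplying the glycine and proline used to make collagen. RNA levels do not report the translation of ATF4 or its protein.

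The C/EBP-ATF core TGATGNAA was searched on both strands from 1000 bases before to 500 bases after the RefSeq start sites of these genes in GRCh38, because it is the element through which ATF4 is known to act; the width of the search was chosen after the expression values were seen. Start sites were given for 9 of the 10 genes, NUPR1 being the exception. A core lay near 7 of the 9 genes, whereas 19.8% of 27305 genes with a start site held one in a window of this length. The 10 genes were grouped as ATF4, its partners and its targets, so this count is not independent of the known role of the core. The exact form TGATGCAA lay near 5 of the 9 (DDIT3, DDIT4, TRIB3, CHAC1 and ADM2) and near 4.01% of all genes. ATF4 and CEBPB held none. A match is a description of letters, and no binding was measured here. The sites are printed 5′ to 3′ on the strand of the gene, with the core in capitals. That is the minus strand of GRCh38 for DDIT3 and the plus strand for the other genes. A core that begins with TT lies on the strand opposite the gene and reads as its reverse complement.
DDIT3: ttgccaaacaTTGCATCAtccccgcccc
DDIT4: tcctcggtccTGATGCAAccgtctggat
TRIB3: tagctccggtTTGCATCAcccggaccgg
CHAC1: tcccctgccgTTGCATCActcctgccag
ADM2: ccgccctgggTTGCATCAgcctcctctg
ATF3: aaggtcaggaTGATGGAAggctgtcata
SESN2: tgaagtccctTTTCATCAcgcaacccta

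The TRIB3 run occurred 3 times, with cores at chr20:380892-380899, chr20:380925-380932 and chr20:380958-380965, each 33 bases after the one before, in a non-coding exon of the GENCODE canonical transcript and 403, 370 and 337 bases before the RefSeq start. The CHAC1 core (chr15:40953262-40953269) lay 209 bases before the start, in a non-coding exon of an alternative transcript. The DDIT3 core (chr12:57520813-57520820) lay 303 bases before the start, in an intron of longer transcripts and of the neighbour MBD6. The ATF3 core (chr1:212565216-212565223) and the SESN2 core (chr1:28259222-28259229) lay 191 and 296 bases before their starts, outside annotated exons. The DDIT4 core (chr10:72272978-72272985) lay farther away, at 946 bases before the start, in an exon of an unnamed long non-coding RNA. The ADM2 core (chr22:50481877-50481884) lay 335 bases after the start, in a coding exon of ADM2 and an intron of SBF1. In the narrower window of 250 bases before to 50 after the start, a core was found for ATF3 and CHAC1, against 4.46% of genes.

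**Figure D1:**
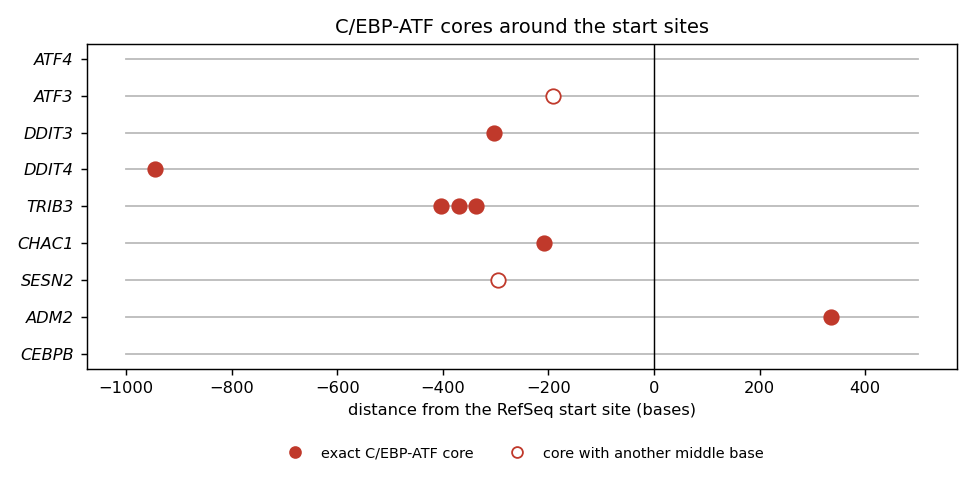
C/EBP-ATF cores around the start sites of the 9 genes with a RefSeq start. The horizontal axis is the distance in bases from the start, filled circles are the exact core and open circles a core with another middle base. TRIB3 held 3 exact cores, and ATF4 and CEBPB held none.

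All 10 genes had lower mean CPM in DOX+ cells, where 50.7% of all features tested had a log2 fold change below 0. Of the 10, 6 fell at an adjusted p under 0.05 (edgeR's quasi-likelihood test, Benjamini-Hochberg over all 13991 features): NUPR1, TRIB3, DDIT4, CEBPB, CHAC1 and ADM2. Over all features tested, 0.715% were called lower and 0.4% higher. Because the 10 were picked with earlier results known, shares over all features are a background and not an independent test. No gene of the 10 was called higher, by edgeR, DESeq2, limma-voom or limma on log2 FPKM, and 0 were higher at an unadjusted edgeR p under 0.05, where 9 were lower. At that unadjusted threshold 7.69% of all features tested were lower and 7.31% higher, which is the background for each unadjusted count. The median log2 fold change of the 10 was −0.31, against −0.0019 over all features tested. In 9 of the 10 genes the highest DOX+ library lay under the lowest DOX- library, which was so for 10.6% of all features tested; ATF3 was the exception. DESeq2 called 6 of the 7 genes it gave an adjusted p for, ATF4 among them (3.54% of features lower and 3.52% higher), and limma-voom 6 of 10 (0.7%), whereas limma on log2 FPKM called 0 of 10 (0.172%). With TMM replaced by plain library size scaling, 77 features (0.55%) were called lower and 88 higher, in place of 100 and 56, and 6 of the 10 genes were called lower. The lower collagen RNA in the same libraries is given above, and its part in these results was not tested. In RNA from whole cultures, fewer expressing cells and less RNA per cell cannot be told apart.

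**Figure D2:**
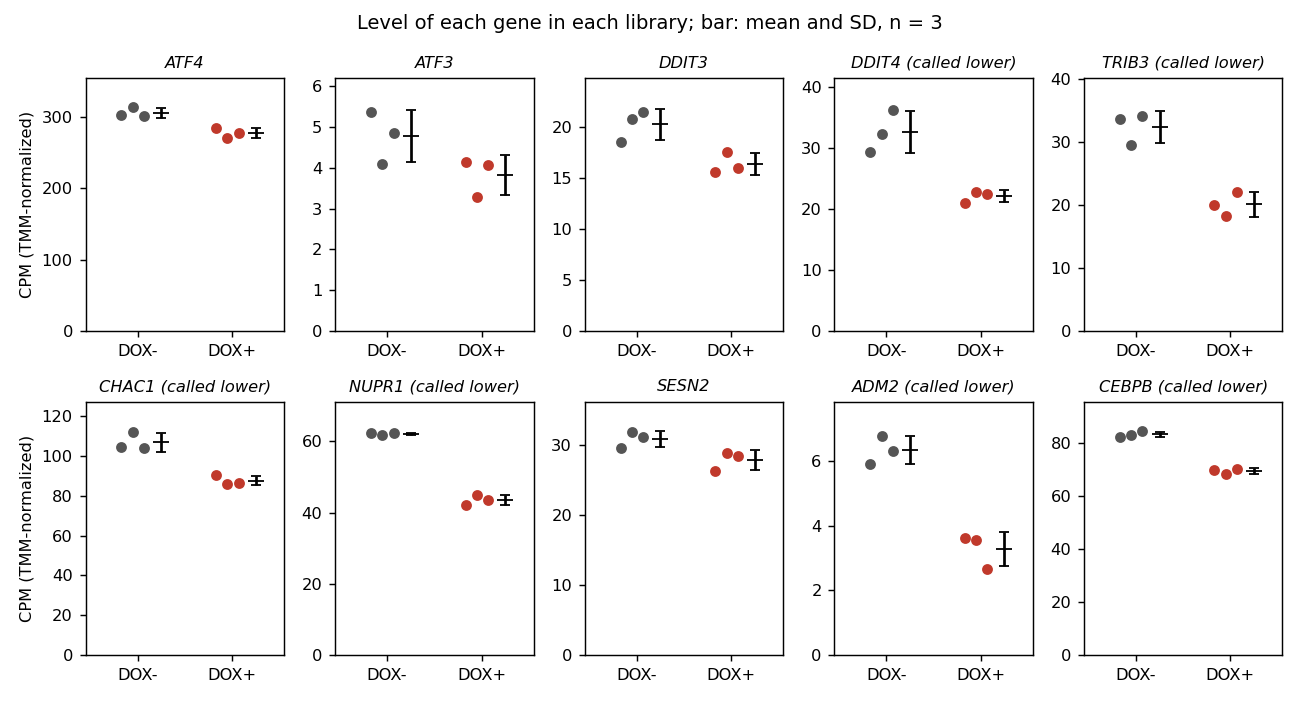
Level of each of the 10 genes in each library. The vertical axes are TMM-normalized CPM and start at 0, each point is 1 library, and the bar beside the points is the mean with its SD (n = 3). DOX+ points lie below all DOX- points in 9 genes and overlap them in ATF3.

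ATF4 (ENSG00000128272, chromosome 22 of GRCh38, 39519695 to 39522683) encodes the factor at the head of the pathway. Its level was 303, 313 and 301 CPM in DOX- replicates 1, 2 and 3 and 284, 270 and 278 CPM in DOX+ replicates 1, 2 and 3. The groups did not overlap. The mean was 306 ± 6.83 CPM in the controls and 277 ± 7.24 CPM after induction (SD, n = 3 each). The log2 fold change was −0.14 (SE 0.0351, 95% interval −0.22 to −0.07), which did not pass the threshold (edgeR adjusted p = 0.0795). DESeq2 gave a like value, −0.14, and called it (DESeq2 adjusted p = 0.00148). ATF4 thus kept 90.7% of its control level, beside 51.7% to 83.4% for the 6 genes that fell. In FPKM the groups overlapped, at 150, 194 and 184 in DOX- replicates 1, 2 and 3 against 177, 170 and 174 in DOX+ replicates. The log2 difference on the FPKM scale was −0.008, which limma did not call (limma adjusted p = 0.979). The transcript length implied by the ratio of count to FPKM was 2012 bases in DOX- replicate 1 and 1600 to 1616 bases in the other libraries. The 4 annotated ATF4 pseudogenes were not analysed here, and a split of reads between ATF4 and these copies was not tested.

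CEBPB (ENSG00000172216, chromosome 20, 50190830 to 50192668), a single-exon gene, encodes a C/EBP factor that can pair with ATF4. It was at 82.3, 83.2 and 84.5 CPM in DOX- replicates 1, 2 and 3 and at 70.0, 68.3 and 70.3 CPM in DOX+ replicates 1, 2 and 3. The DOX+ libraries lay in a narrow band well below the controls. CEBPB fell by 0.26 on the log2 scale (SE 0.0400, edgeR adjusted p = 0.00557). The 231 bases of exon it shares with the antisense gene CEBPB-AS1 could not be resolved by strand.

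DDIT3 (ENSG00000175197, chromosome 12, 57516588 to 57521737) encodes CHOP, a bZIP factor induced by ATF4 that is known for its part in stress-induced cell death. It was at 18.6, 20.8 and 21.5 CPM in DOX- replicates 1, 2 and 3 and at 15.6, 17.6 and 16.0 CPM in DOX+ replicates 1, 2 and 3. The groups were separate, with the highest DOX+ library just under the lowest DOX- library. The log2 fold change of −0.31 (SE 0.0807, 95% interval −0.48 to −0.13) missed the threshold (edgeR adjusted p = 0.0949). Exons of DDIT3 overlap those of MARS1 on the opposite strand by 355 bases. MARS1, the methionyl-tRNA synthetase and itself a gene of the pathway, had 5517 to 6823 counts against 556 to 749 for DDIT3, and it fell by 0.28 on the log2 scale (edgeR adjusted p = 0.00221). DDIT3 exons also overlap those of MBD6 on the opposite strand by 58 bases (702 to 851 counts, log2 fold change −0.12) and those of ENSG00000285133 on the same strand by 105 bases (0 counts in every library). The library kit is not stated to keep strand, so the reads of the shared bases cannot be told apart.

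ATF3 (ENSG00000162772, chromosome 1, 212565334 to 212620777) encodes a bZIP factor that is switched on by many stresses and represses some of the same targets. It was at 5.37, 4.09 and 4.85 CPM in DOX- replicates 1, 2 and 3 and at 4.15, 3.27 and 4.06 CPM in DOX+ replicates 1, 2 and 3. The lowest control library fell inside the DOX+ range. With 116 to 182 counts per library, its log2 fold change of −0.32 had the widest standard error of the 10 (0.158), and the interval of −0.66 to 0.02 included 0 (edgeR adjusted p = 0.371).

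NUPR1 (ENSG00000176046, chromosome 16, 28532708 to 28539008) encodes a small chromatin-associated stress protein. It had the smallest p of the 10. Its level was 62.3, 61.7 and 62.2 CPM in DOX- replicates 1, 2 and 3 and 42.2, 44.9 and 43.5 CPM in DOX+ replicates 1, 2 and 3. Both groups were tight, with SDs of 0.312 and 1.35 CPM (n = 3 each). NUPR1 fell by 0.51 on the log2 scale (SE 0.0446, edgeR adjusted p = 4.05e-05), to 70.1% of control. The FPKM values did not show this separation: they were 23.1, 21.3 and 16.8 in DOX- replicates 1, 2 and 3 and 18.4, 19.4 and 14.9 in DOX+ replicates, with a log2 difference of −0.21 that limma did not call (limma adjusted p = 0.522). The length implied by count over FPKM ran from 2299 to 3654 bases between libraries for NUPR1, a ratio of 1.59, against a ratio of at most 1.08 for the 8 genes other than NUPR1 and ATF4. NUPR1 also shares 909 bases of exon with an unnamed long non-coding RNA on the same strand.

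TRIB3 (ENSG00000101255, chromosome 20, 362835 to 397559) encodes a pseudokinase that binds AKT and ATF4 and dampens the response that induces it. It was at 33.7, 29.6 and 34.2 CPM in DOX- replicates 1, 2 and 3 and at 20.0, 18.2 and 22.2 CPM in DOX+ replicates 1, 2 and 3. The gap between the groups was wider than the range within either. TRIB3 fell by 0.69 on the log2 scale (SE 0.0809, edgeR adjusted p = 0.000747), to 62.0% of control. Its 3 exact cores, printed above, were the most of any of the 9 genes searched.

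DDIT4 (ENSG00000168209, chromosome 10, 72273919 to 72276036) and SESN2 (ENSG00000130766, chromosome 1, 28259518 to 28282491) encode inhibitors of mTORC1, the kinase complex that promotes protein synthesis and growth. DDIT4 was at 29.5, 32.4 and 36.3 CPM in DOX- replicates 1, 2 and 3 and at 21.1, 22.9 and 22.4 CPM in DOX+ replicates 1, 2 and 3. The controls were more spread than the DOX+ libraries, and the groups were well apart. DDIT4 fell by 0.56 on the log2 scale (SE 0.0763, edgeR adjusted p = 0.00259). SESN2 was at 29.6, 31.8 and 31.1 CPM in DOX- replicates 1, 2 and 3 and at 26.2, 28.9 and 28.4 CPM in DOX+ replicates 1, 2 and 3. These groups were separate by less than 1 CPM. The log2 fold change of SESN2 was −0.15 (SE 0.0606, 95% interval −0.28 to −0.02), without a call (edgeR adjusted p = 0.278), and in FPKM its groups overlapped.

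CHAC1 (ENSG00000128965, chromosome 15, 40952962 to 40956512) encodes an enzyme that degrades glutathione. It was at 104, 112 and 104 CPM in DOX- replicates 1, 2 and 3 and at 90.4, 86.0 and 86.6 CPM in DOX+ replicates 1, 2 and 3. The groups did not overlap. CHAC1 fell by 0.29 on the log2 scale (SE 0.0448, edgeR adjusted p = 0.00615), to 82.0% of control.

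ADM2 (ENSG00000128165, chromosome 22, 50481543 to 50486440) encodes a secreted peptide hormone related to adrenomedullin. It was the one secreted factor of the 10 and changed the most. Its level was 5.93, 6.79 and 6.34 CPM in DOX- replicates 1, 2 and 3 and 3.62, 3.55 and 2.68 CPM in DOX+ replicates 1, 2 and 3. All DOX+ libraries were far below the controls, although with only 97 to 239 counts per library. ADM2 fell by 0.95 on the log2 scale (SE 0.151, 95% interval −1.28 to −0.63, edgeR adjusted p = 0.00629), to 51.7% of control. Its exons overlap those of SBF1 on the opposite strand by 131 bases; SBF1 had 3597 to 4354 counts and a log2 fold change of −0.05.

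**Figure D3:**
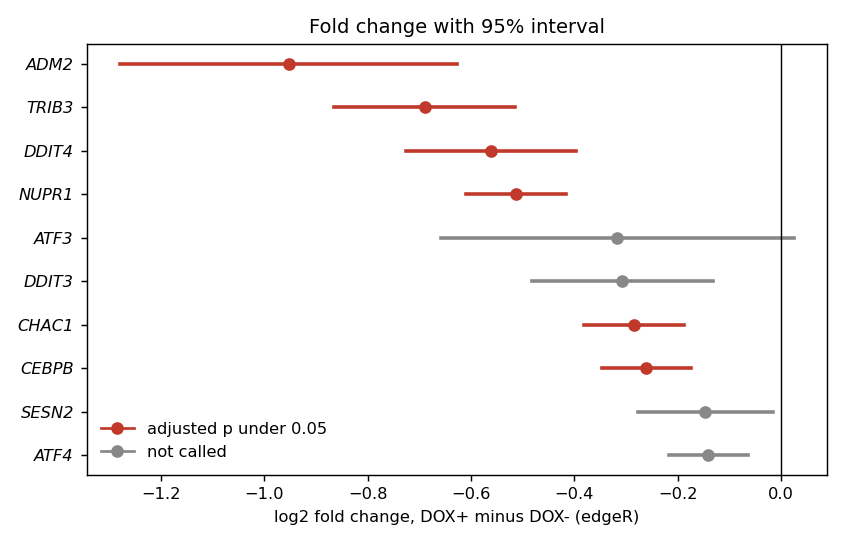
Fold change of each of the 10 genes. The horizontal axis is the log2 fold change of DOX+ against DOX- cells, points are edgeR estimates, lines are 95% intervals, and red marks an adjusted p under 0.05. Estimates run from −0.95 for ADM2 to −0.14 for ATF4, and the interval of ATF3 alone includes 0.

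Per transcript length, the order of levels in DOX- cells was led by ATF4, at 176 ± 23.3 FPKM (SD, n = 3). CHAC1 followed at 61.8 ± 3.14 FPKM and CEBPB at 38.3 ± 0.172 FPKM. NUPR1 (20.4 FPKM) and DDIT3 (20.1 FPKM) did not differ beyond their spread, and DDIT4 followed at 16.8 FPKM, its libraries overlapping those of NUPR1. TRIB3 was at 12.2 FPKM, SESN2 at 8.02, ATF3 at 2.24 and ADM2 at 1.33 FPKM. In DOX+ cells the same genes led and closed this order, from 174 FPKM for ATF4 to 0.706 FPKM for ADM2. There TRIB3 (7.69 FPKM) and SESN2 (7.44 FPKM) overlapped, which they had not done in the controls.

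**Figure D4:**
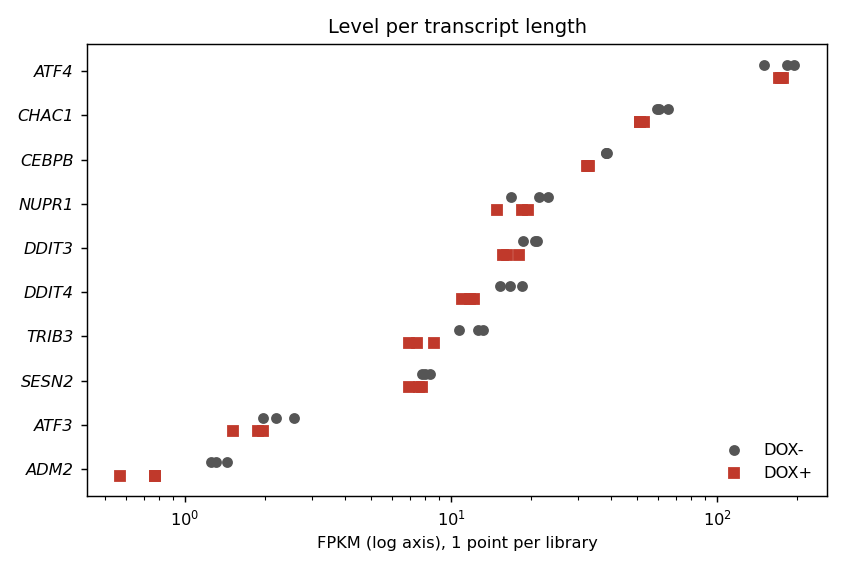
Deposited FPKM of each gene in each library. The horizontal axis is logarithmic, grey circles are DOX- and red squares DOX+ libraries, and genes are ordered by their mean in DOX- cells. Values span from under 1 FPKM for ADM2 in DOX+ cells to 194 FPKM for ATF4, and the groups of ATF4, NUPR1 and SESN2 overlap on this scale.

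The shift was present in each DOX+ library. Measured on the log2 scale from the control mean, the median of the 10 genes was −0.31 in DOX+ replicate 1, −0.39 in replicate 2 and −0.32 in replicate 3. In DOX+ replicate 1, 9 of the 10 genes lay below their lowest control library, and in replicates 2 and 3 all 10 did. Without DOX+ replicate 2, the library that stood apart, 6 genes were called lower as with all libraries. Inside a group, pairs of the 10 genes had correlations of both signs. Of 45 pairs, 19 had a positive correlation of their deviations from the group means over the 6 libraries. The median r was −0.09 (range −0.85 to 0.91, with ATF4 and CHAC1 the highest). These r values share libraries and scaling and rest on few degrees of freedom. They are a description and do not settle whether the genes vary together. Over the 6 libraries, the features most like ATF4 by Pearson r among 11716 with enough signal were CASP4, TGIF1, LMO4, CDR2 and UCHL1, with r between 0.991 and 0.997, a likeness that the group difference can set.

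Upstream of ATF4, the kinases of eIF2alpha and their helpers were not called in either direction by edgeR (0 of 10 tested, with 1 higher and 0 lower at an unadjusted p under 0.05). DESeq2 called 1 of the 8 it gave an adjusted p for higher, and limma-voom called 0 of 10. The 4 kinases had log2 fold changes of 0.02 for EIF2AK1 (HRI, the haem-regulated kinase), 0.09 for EIF2AK2 (PKR, activated by double-stranded RNA), 0.16 for EIF2AK3 (PERK, of the endoplasmic reticulum) and 0.07 for EIF2AK4 (GCN2, which senses uncharged tRNA). The highest value of this list was that of DNAJC3, an inhibitor of PKR and PERK, at 0.24 (SE 0.0697, edgeR adjusted p = 0.125). The phosphatase that reverses the signal and the exchange factor eIF2B gave no edgeR call among 10 tested either, with 2 lower and 2 higher at an unadjusted p under 0.05. DESeq2 and limma-voom each called 1 of these lower. PPP1R15A, the stress-induced phosphatase subunit also known as GADD34 and a target of the pathway, had the smallest p there, with a log2 fold change of −0.15 (SE 0.0347, edgeR adjusted p = 0.0553). The list medians were 0.05 and 0.01, near the −0.0019 of all features tested.

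Of 11 paralogs of the 10 genes that were tested, 1 was called lower, CEBPD, another C/EBP factor, which fell by 0.34 on the log2 scale (SE 0.0663, edgeR adjusted p = 0.0259). With limma on log2 FPKM 0 of the 11 were called, and edgeR without a filter on low counts called 2 of 13 lower. CEBPG, which forms pairs with ATF4, had −0.21 (edgeR adjusted p = 0.0881), and ADM, the hormone related to ADM2, had −0.20 (edgeR adjusted p = 0.0556). Paralogs of other members had values above 0 without a call, among them SESN1 at 0.27, TRIB1 at 0.12, DDIT4L at 0.11 and CHAC2 at 0.14. ATF5 and JDP2 had −0.09 and −0.21. The median of the 11 was 0.03. Among 22 other bZIP factors tested, edgeR and limma-voom called 0 in either direction, as did DESeq2 for the 16 it gave an adjusted p for, with 1 lower and 1 higher at an unadjusted edgeR p under 0.05, and the median was −0.02.

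Among known targets of ATF4 outside the 10, the genes of amino acid supply held the most calls. Of 19 such enzymes and transporters tested, 9 fell and 0 rose, with a median log2 fold change of −0.30. The smallest p-values there belonged to ASNS, asparagine synthetase (−0.65), PSAT1 and PHGDH of serine synthesis (−0.67 and −0.47) and SLC7A5, a subunit of a leucine transporter (−0.49), each with an edgeR adjusted p of 3.5e-05 or less. The 6 called regulators and effectors ranged from −0.26 to −0.95. Of 12 aminoacyl-tRNA synthetases tested, which charge tRNAs with amino acids, 5 fell and 0 rose by edgeR, with a median of −0.17, led by WARS1 (−0.34) and MARS1, and followed by GARS1 and CARS1 (both −0.23). DESeq2 called 8 of these 12 lower and limma on log2 FPKM 2. Of 19 other targets of ATF4 or CHOP, edgeR called 5 lower and 0 higher, with 9 lower and 3 higher at an unadjusted p under 0.05. DESeq2 called 6 lower and 1 higher of 15, and limma on log2 FPKM 3 lower. The edgeR calls included EIF4EBP1, an inhibitor of cap-dependent translation (−0.39), SQSTM1, an autophagy receptor (−0.24), GDF15, a secreted stress hormone (−0.32), and STC2, a secreted glycoprotein (−0.19). The median of these 19, which include PPP1R15A and CEBPG of the lists above, was −0.06. These lists were drawn up with earlier results of these libraries known.

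Of 19 genes of the ATF6 and XBP1 branches, which raise chaperones of the endoplasmic reticulum, edgeR called 0, with 2 lower and 5 higher at an unadjusted p under 0.05, and the median was 0.07. DESeq2 called 1 lower and 3 higher of 16, limma-voom 0 of 19, and edgeR with library size scaling 1 higher. Of 14 immediate early genes, which respond to growth factors and handling, edgeR called 0, as did DESeq2 for the 10 it gave an adjusted p for, with 3 lower and 0 higher at an unadjusted edgeR p under 0.05, and the median was 0.01. The difference between these lists and the 10 genes was not tested.

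**Figure D5:**
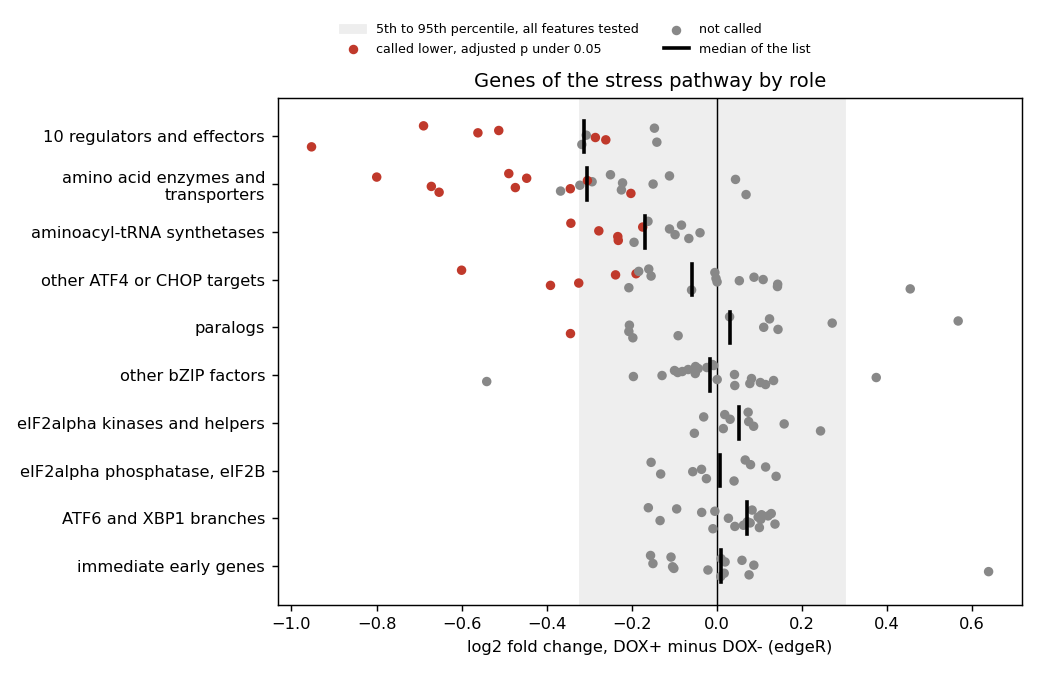
Log2 fold changes of the genes of the pathway by role. Each point is 1 tested gene, red points were called lower (edgeR adjusted p under 0.05), black bars are list medians, and the grey band holds the 5th to 95th percentile of all features tested (−0.32 to 0.30). Medians of the 10 genes and of the amino acid genes lie near −0.31 and −0.30, and those of the kinase, phosphatase, ATF6 and XBP1, and immediate early lists lie between 0.01 and 0.07.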

How the data were processed

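Poly(A)-selected RNA of the IMR-90 line was sequenced as read pairs of 150 bp, in 3 DOX- and 3 DOX+ libraries. Per the submitters' processing notes, the authors used GRCh38, HISAT2 and StringTie; versions and the counting step are not given in the sources used here. The authors deposited whole-number counts per gene without normalization, and FPKM values, which the authors scaled by transcript length and depth. Fold changes used the counts, except those given for limma on log2 FPKM. From the table, 17 lines without all columns or without whole-number counts were dropped and 3780 unannotated loci were kept.

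Counts were tested in edgeR 4.0.16 (R 4.3.3): filterByExpr with a minimum count of 10, TMM factors (0.988 to 1.01), the quasi-likelihood test and Benjamini-Hochberg adjustment over 13991 features, called at 0.05. Standard errors and 95% intervals come from the same fit. The alternatives were 2 other filters, 2 other scalings, DESeq2 1.42.0, limma-voom (limma 3.58.1), a replicate block, removal of a length trend (lowess span 0.3), each library left out, and other thresholds; limma on log2(FPKM + 0.1) was added after seeing the data. Pairs of libraries within a group differed by more than sampling noise, so none was counted as a duplicate.

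The members and the gene lists were chosen with earlier results of these data known. Named genes are the 10, ZNF469, tested genes of the kinase, phosphatase and paralog lists, up to 4 called genes with the smallest p of other lists, and the 5 features most like ATF4. Genes whose exons overlap a member, and a few marker genes, were named besides. Coordinates are from GENCODE 44, and start sites and promoter windows are credited to RefSeq (GRCh38). On simulated counts for this comparison with 13890 genes tested, edgeR called 22.7% of genes changed by 0.3, 77.3% of those changed by 0.5 and 95.4% of those changed by 1 on the log2 scale, and 5.88% of calls were false. Every simulated gene had the same spread beyond counting noise (coefficient of variation 0.0731). These shares therefore need not hold for the 10 genes, whose spread differs between genes.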

Additional observations from a re-analysis of the deposited data

How the results depend on the processing

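Of 147 values of the 10 genes under other settings, 140 kept their direction and side of the threshold and 0 reversed. ATF4 was called with DESeq2. The 6 called genes lost their call with limma on log2 FPKM, an alternative chosen after seeing the data, so that 0 of the 10 were called lower there; log2 fold changes on that scale were −0.52 for DDIT4, −0.66 for TRIB3, −0.25 for CHAC1, −0.21 for NUPR1, −0.84 for ADM2 and −0.22 for CEBPB, with limma adjusted p-values from 0.0528 to 0.522. The cause was not tested. DESeq2 gave no adjusted p for ADM2, ATF3 and DDIT3. Where a log2 change larger than 1 in size was also required, 0 of the 10 were called lower. Leaving out each library in turn kept the count at 6 of 10 each time, with log2 fold changes of −1.03 to −0.82 for ADM2, −0.76 to −0.62 for TRIB3 and −0.63 to −0.48 for DDIT4.

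Over all features, 100 were called lower and 56 higher. These counts were 163 and 127 without a filter on low counts, 244 and 243 with DESeq2, 24 and 6 with limma on log2 FPKM, 4 and 2 where a log2 change larger than 1 in size was required, and 54 and 19 at an FDR under 0.01. Library size scaling gave 88 higher. Leaving out a library gave 54 to 92 lower and 20 to 69 higher, with fewest without DOX+ replicate 1; without DOX- replicate 1 the counts were 55 and 27, without DOX- replicate 2, 33 were higher, and without DOX- replicate 3 the counts were 58 and 31. With a replicate block, 157 were lower and 135 higher and 6 of the 10 genes were called. Deviations of libraries with the same number correlated at −0.024, −0.035 and 0.036, and those with different numbers at −0.033 to 0.058. These few values do not settle whether the numbers pair the samples, and the main test used no pairing. Low counts limit ADM2 and ATF3 most.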
